A study of Homo sapiens with 6 samples.

Results

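The nuclear-encoded subunits of the mitochondrial respiratory chain and ATP synthase were examined in RNA-Seq counts of MRC5 lung fibroblasts. Members were chosen by gene symbol: protein-coding genes of the count table whose GENCODE symbol begins with the stems NDUFA, NDUFB, NDUFC, NDUFS, NDUFV, SDH, UQCR, CYC1, COX4 to COX8 or ATP5 in the forms the rule allows, with a minimum of 10 counts over all 6 libraries together. This gave 79 genes of the 19072 tested, from 84 that matched by symbol. Complex I had 35 of them, complex II 4, complex III 10, complex IV 12 and complex V 18. *NDUFA4* was placed in complex IV, where its product is now assigned, and the ATP synthase inhibitor *ATP5IF1* in complex V.

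MRC5 is a human fibroblast line derived from normal fetal lung. The cells were exposed for 24 h to conditioned medium (CM) of ATII cells, a human alveolar epithelial type II line engineered with a construct that 4-hydroxytamoxifen (4-OHT) switches on. The 3 libraries of the control ATII CM group received CM of these cells without that induction, and the 3 libraries of the 4-OHT ATII CM group received CM of the same line after 24 h of 4-OHT. Both groups therefore received medium from the same engineered epithelial line, and no gene was targeted in the MRC5 cells themselves. Any 4-OHT carried over in the medium and the factors released after induction cannot be told apart. All libraries came from 1 fibroblast line, the labels do not say whether replicates were separate cultures, and p-values then measure only the spread between these samples.

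The respiratory chain sits in the inner mitochondrial membrane and passes electrons from NADH and succinate to oxygen. Complex I oxidizes NADH, complex II oxidizes succinate and also belongs to the citric acid cycle, complex III reduces cytochrome c, and complex IV reduces oxygen. Complexes I, III and IV pump protons, and complex V uses the proton gradient to make ATP. Most subunits are encoded in the nucleus and imported, whereas a core set for complexes I, III, IV and V is encoded in mitochondrial DNA. Lung fibroblasts draw on both glycolysis and respiration, and the mRNA counts analysed here measure neither protein nor oxygen use.

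Library totals ranged from 17691849 to 26389449 counts. Control replicate 2 had the fewest counts and stood apart on the first principal component (24.5% of variance), at -41.7. The other controls were at -7.43 and -0.08 and the 4-OHT libraries at 12.9 to 21.5. On the second component (21.8%), control replicates 1 and 3 stood at 35.3 and 17.4. Control replicate 2 was there at -20.1 and the 4-OHT libraries at -16.5 to -7.84. Of the fibroblast markers, all 10 were above the count minimum, 4 were called up and 1 down, and they summed to 41095 to 44612 CPM (counts scaled to library size) in control ATII CM and 42969 to 44711 CPM in 4-OHT ATII CM. Of the 10 epithelial markers, 4 were tested and none was called, 3 of the rest were at 0 in every library (*KRT5*, *SFTPA1* and *NKX2-1*), and the list summed to 14.5 to 16.5 CPM in controls and 13.3 to 16.6 CPM in 4-OHT libraries. Of 4 endothelial markers 2 were tested and 1 was called up, and of 4 leukocyte markers 1 was tested and not called. Of 6 proliferation genes, 5 were called lower in 4-OHT ATII CM, and their list summed to 280 to 298 CPM in controls against 202 to 223 CPM; the part of proliferation in the values below was not tested.

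No member was called up or down. Over all 19072 genes, edgeR called 1090 (5.72%) at an adjusted p under 0.05, 563 up (2.95%) and 527 down (2.76%). Among the members, 0 of 79 were called in either direction, and the lowest adjusted p was 0.111, for *ATP5MK*. At an unadjusted p under 0.05, edgeR passed 9 members (11.4%) against 17.3% of all genes tested. Among genes with a mean of at least 10 CPM, it passed 9.59% of 73 members against 26.7% of 9202 genes. With limma-voom 9 members passed and with DESeq2 2, and no share over all genes was computed for these. None of these tools called a member after adjustment. Nor did any member pass in any of the 17 alternative analyses, which included leaving out each library.

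The 95% confidence interval lay inside a log2 fold change of 0.25 in either direction for 68 of the 79 members and inside 0.5 for 74, against 7088 and 10821 of the 19072 genes tested. The median standard error of a member's log2 fold change was 0.0456, against 0.104 over all genes tested, many of which have few counts. At a mean of at least 10 CPM it was 0.0448 over 73 members and 0.0509 over 9202 genes, with intervals inside 0.25 for 68 of those members and 6949 of those genes. The median log2 fold change was -0.03 over the members and 0.00 over all genes tested, with quartiles of -0.06 and 0.02 over the members. Fold changes were below 0 for 54 members and above 0 for 25 (31.6%), against 49.5% of all genes tested above 0. The 5 members whose intervals reached beyond 0.5 were *NDUFV2*, *NDUFA7*, *NDUFA3* and *NDUFA13* of complex I and *COX6B2* of complex IV, all with under 230 counts over the 6 libraries.

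**Figure D1:**
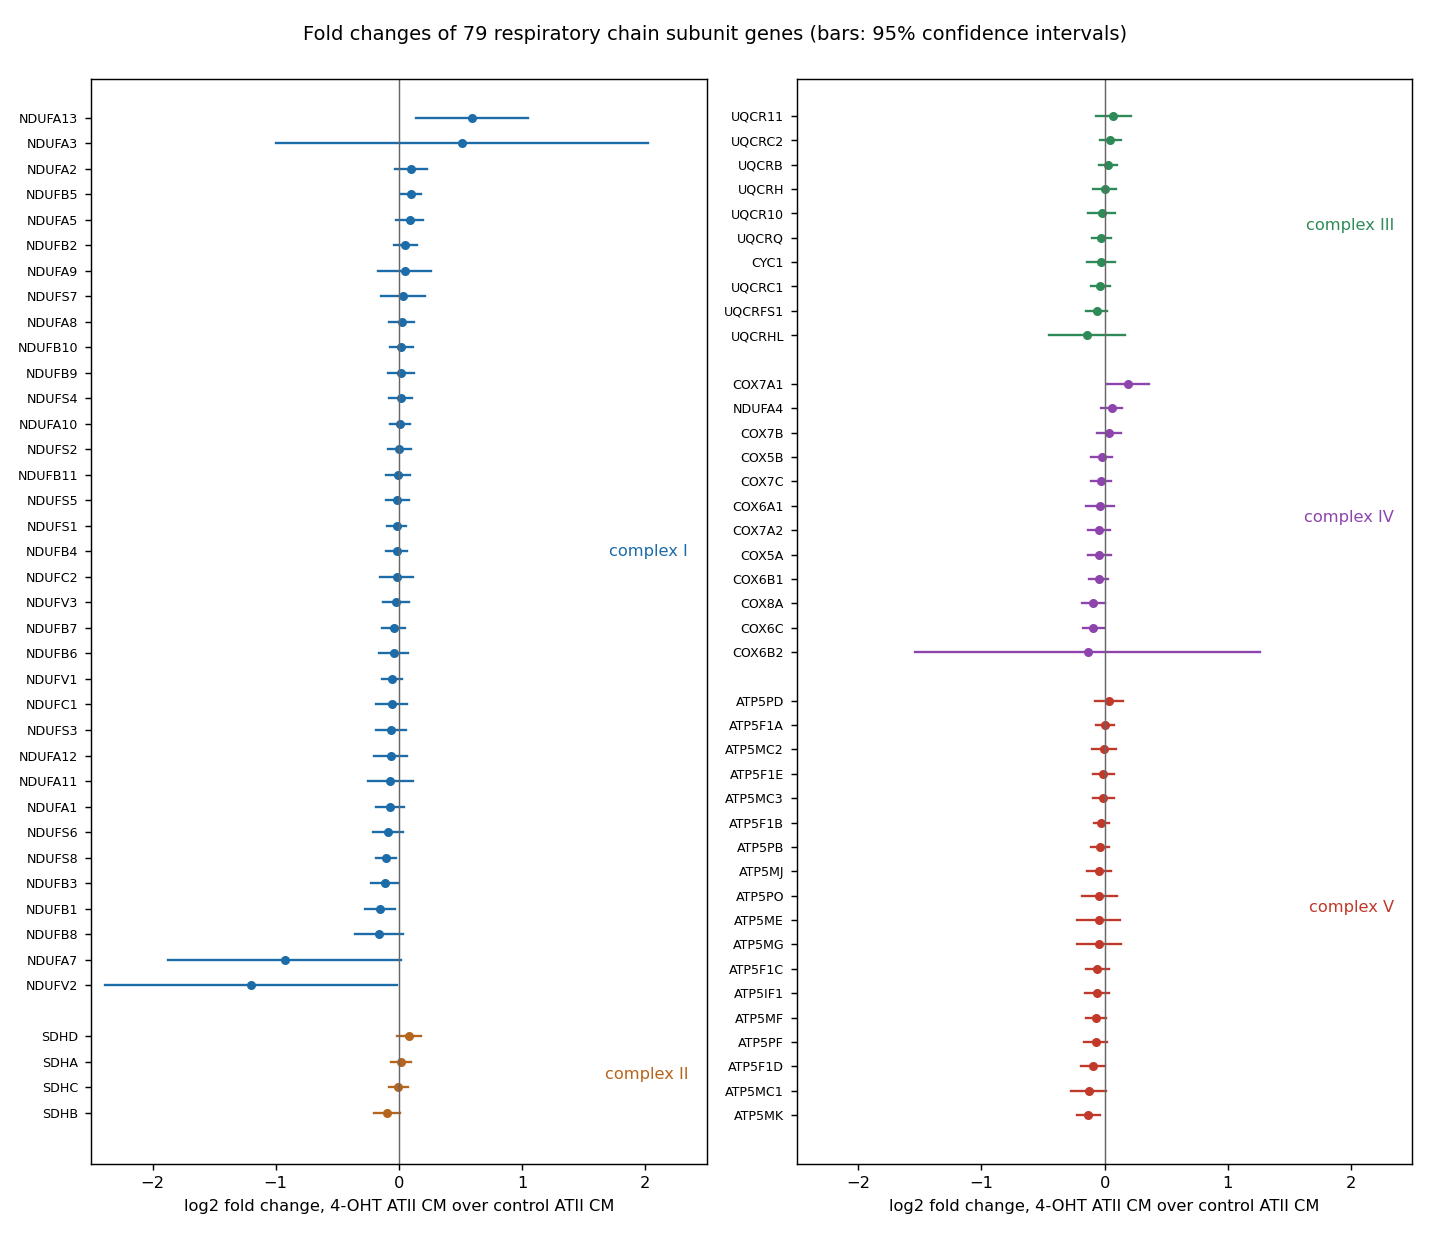
Log2 fold change of each of the 79 members on the x axis, 4-OHT ATII CM over control ATII CM, with genes on the y axis grouped by complex and bars giving 95% confidence intervals from the edgeR fit. Most points lie within 0.25 of 0, and the wide bars belong to the sparsely counted *NDUFV2*, *NDUFA7*, *NDUFA3*, *NDUFA13* and *COX6B2*.

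Between the groups, 13 members did not overlap. All 3 libraries of 4-OHT ATII CM were above all controls for 4 members (5.06%), against 11.7% of all genes tested. They were below all controls for 9 members (11.4%), against 10.4% of all genes tested. Among genes with a mean of at least 10 CPM, 4.11% of 73 members were above and 9.59% below, against 16.9% and 13.5% of 9202 genes.

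The summed output of each complex was close between the groups. The members of complex V, the most abundant by counts, summed to 2241, 2351 and 2305 CPM in control ATII CM and to 2244, 2262 and 2252 CPM in 4-OHT ATII CM, a mean 2.03% below controls. Complex I summed to 1616, 1713 and 1646 CPM in controls and to 1627, 1642 and 1635 CPM in 4-OHT libraries. The 4-OHT values of both complexes lay within the range of the controls. Complex III differed by -0.464%, complex IV by -1.40% and complex II by 0.297% of the control mean. All members together summed to 6150 ± 158 CPM (SD, n = 3) in controls and 6063 ± 28.1 CPM (SD, n = 3) in 4-OHT libraries, a difference within 1 SD of the controls.

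**Figure D2:**
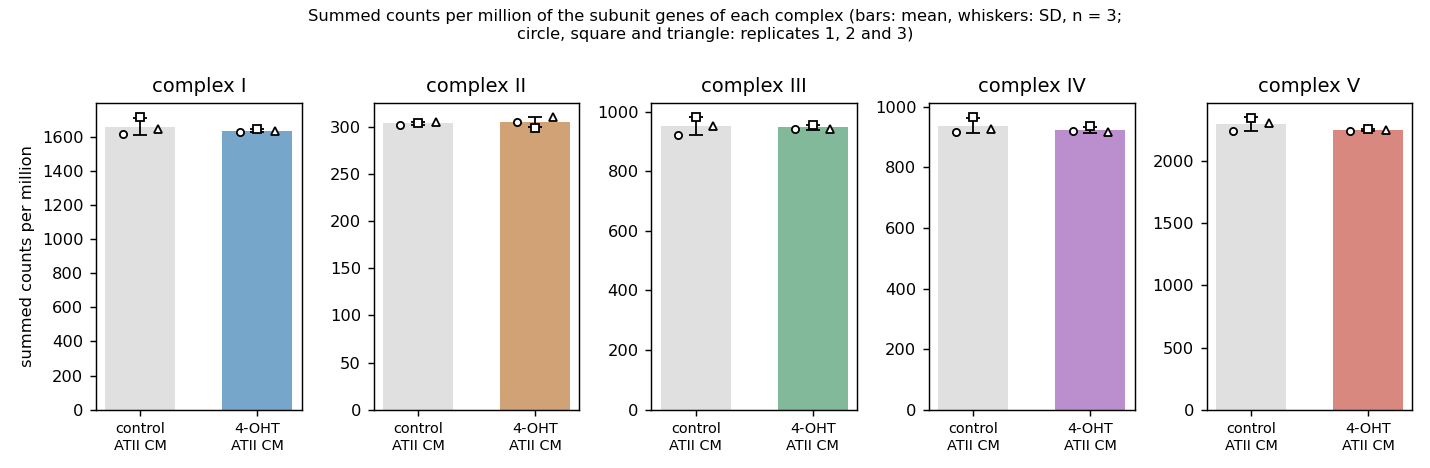
Summed CPM of the members of each complex on the y axis by group on the x axis, with bars for means, whiskers for SD (n = 3) and 1 symbol per library. The bars of the 2 groups are nearly level in each complex, and control replicate 2 (squares) is the highest library for complexes I, III, IV and V.

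Control replicate 2 gave the highest value of many members. Of the 79 members, 35 (44.3%) had their highest value in that library, against 21.1% of all genes tested with a mean of at least 1 CPM. Its median deviation over the members, on a log2 scale, was 0.04 above the mean of the 6 libraries, while the other 5 libraries lay between -0.02 and 0.02. Without that library the median log2 fold change of the members was -0.01, with 33 members above 0 and 46 below, and leaving out the other libraries in turn gave medians from -0.044 to -0.015. Without control replicate 2 the median log2 fold change of complex I was -0.0051, the median log2 fold change of complex III was 0.014, the median log2 fold change of complex IV was -0.00988 and the median log2 fold change of complex V was -0.032. The median log2 fold change of complex II was 0.0070 with all libraries and 0.012 without control replicate 2, and it turned below 0 without control replicate 3 (-0.0046) or 4-OHT replicate 3 (-0.0081). The log2 fold change without control replicate 2 was -0.045 for *ATP5MC1*, -0.027 for *ATP5IF1*, -0.056 for *UQCRHL*, -0.060 for *COX6C* and 0.13 for *COX7A1*, against -0.13, -0.06, -0.14, -0.09 and 0.19 with all libraries. Other fold changes near 0 also moved by over 1.5 times when 1 library was left out, and no member was called in any of these fits.

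**Figure D3:**
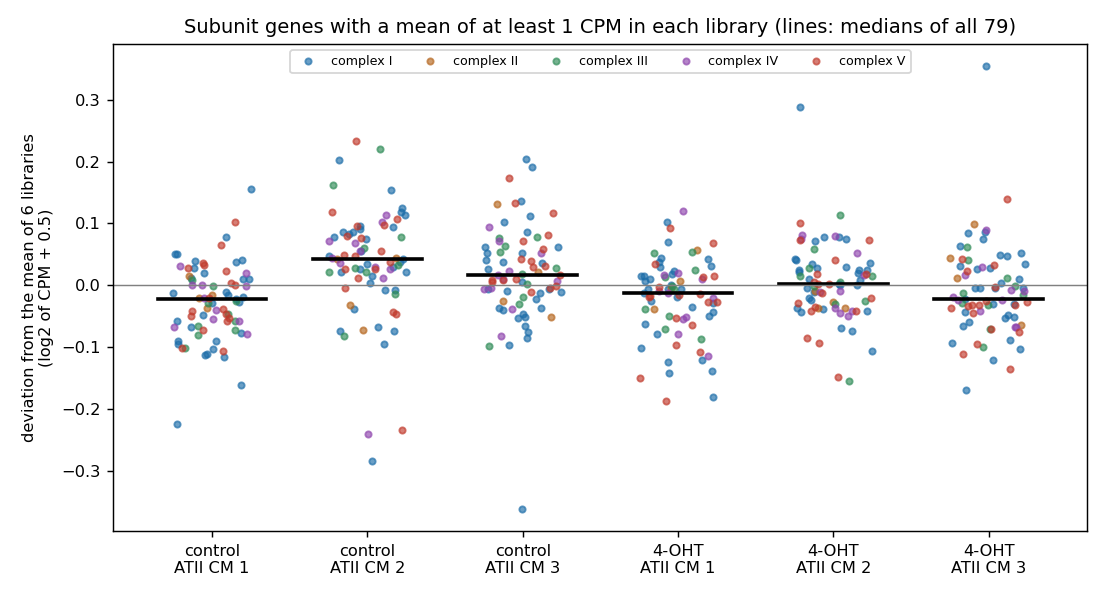
Deviation of each member with a mean of at least 1 CPM from its own mean over the 6 libraries (y axis, log2 of CPM + 0.5) in each library (x axis), coloured by complex, with lines at the medians of all 79 members. The line of control replicate 2 lies at 0.04 and those of the other 5 libraries between -0.02 and 0.02.

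Levels per length spanned a wide range within each complex. They were taken as TPM, in which counts are divided by the merged exon length given in the table and each library is scaled to 1 fixed sum. In complex I the highest was *NDUFS5*, an accessory subunit, at 1326 ± 66.4 TPM (SD, n = 3) in controls and 1308 ± 67.1 TPM (SD, n = 3) in 4-OHT ATII CM. In complex V it was *ATP5F1B*, the catalytic beta subunit, at 982 ± 19.0 and 958 ± 13.8 TPM (SD, n = 3 each). *COX8A* led complex IV with a mean of 492 TPM over the 6 libraries, *UQCRH*, the hinge protein, led complex III with 362 TPM, and *SDHB*, the iron-sulfur subunit, led complex II with 70.4 TPM. Of the 79 members, 71 had a mean of at least 10 TPM, with a median of 95.4 TPM, and over all genes tested the median was 7.98 TPM.

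The order of the levels depends on the length used, and how much of the merged exon sequence these cells use was not tested. With the length of the canonical GENCODE transcript, an alternative chosen after seeing the data, *NDUFS5* (863 TPM) and *ATP5F1B* (758 TPM) were still the highest 2 of the 79. They were followed by *COX7C*, a small subunit of complex IV, at 642 TPM. *SDHC*, one of the membrane anchors of complex II, moved from the lowest of its complex at 30.2 TPM to the highest at 194 TPM.

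**Figure D4:**
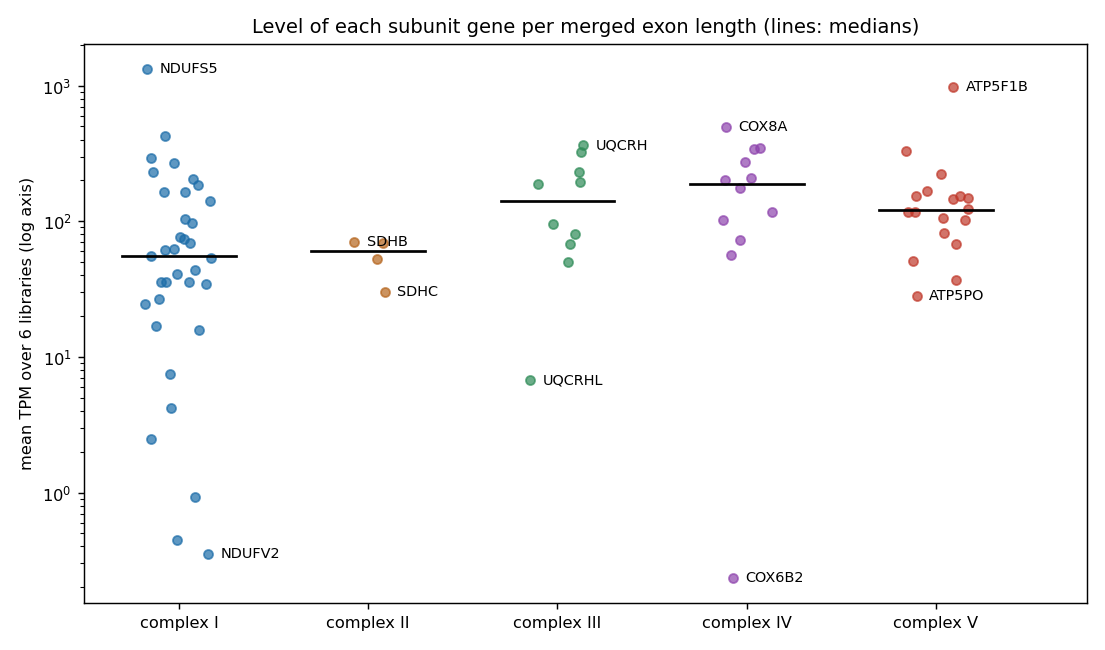
Mean TPM of each member over the 6 libraries on a log y axis, by complex on the x axis, with lines at the medians and the highest and lowest member of each complex named. The members span from 0.236 TPM (*COX6B2*) to 1317 TPM (*NDUFS5*).

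In complex I, 14 of 35 members had fold changes above 0 and 21 below, with a median log2 fold change of -0.02 and 0 called. Its core subunits carry electrons from NADH to ubiquinone. *NDUFS1*, the largest iron-sulfur subunit, was at 108, 106 and 102 CPM in control ATII CM and at 106, 102 and 104 CPM in 4-OHT ATII CM. *NDUFV1*, the flavoprotein that binds NADH, was at 84.4, 87.4 and 89.1 CPM in controls and at 83.6, 85.3 and 82.2 CPM in 4-OHT libraries. Both sets overlapped, with log2 fold changes of -0.02 ± 0.04 (SE) and -0.05 ± 0.04 (SE) and edgeR adjusted p of 0.870 and 0.521.

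Some complex I members came closer to the threshold without reaching it, and they pointed in both directions; they are named here because of their values. *NDUFS8*, a core iron-sulfur subunit, had 64.0, 65.5 and 62.9 CPM in controls and 59.7, 60.0 and 59.0 CPM in 4-OHT libraries. All 4-OHT values were below all controls, with a log2 fold change of -0.11 ± 0.04 (SE; edgeR adjusted p = 0.131). *NDUFB5*, an accessory subunit, had 50.6, 49.2 and 49.8 CPM in controls and 52.7, 53.1 and 54.4 CPM in 4-OHT libraries. Here all 4-OHT values were above all controls, with a log2 fold change of 0.10 ± 0.04 (SE; edgeR adjusted p = 0.195). The accessory subunits *NDUFB1* (-0.15 ± 0.06, SE) and *NDUFB3* (-0.11 ± 0.05, SE) were lower in log2 fold change with overlapping groups, and *NDUFA2* (0.10 ± 0.06, SE) did not overlap but did not pass an unadjusted p of 0.05. *NDUFB8*, the lowest in fold change among complex I members with a mean of at least 1 CPM, had a log2 fold change of -0.16 ± 0.09 (SE) with overlapping groups, and between -0.24 and -0.10 with 1 library left out.

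The largest fold changes of the whole set belonged to complex I genes with very few counts. *NDUFV2*, the other flavoprotein-arm iron-sulfur subunit, had 7, 6 and 7 counts in controls and 5, 3 and 2 counts in 4-OHT libraries. *NDUFA7*, an accessory subunit, had 10, 8 and 8 counts against 4, 7 and 5. Neither pair of groups overlapped, and the log2 fold changes of -1.20 ± 0.56 (SE) and -0.93 ± 0.45 (SE) had edgeR adjusted p of 0.282 and 0.301. Over the alternatives these fold changes ran from -1.84 to -0.90 for *NDUFV2* and from -1.15 to -0.69 for *NDUFA7*. *NDUFA13*, an accessory subunit also known as GRIM-19, had 28, 27 and 26 counts in controls and 36, 52 and 58 counts in 4-OHT libraries, with a log2 fold change of 0.59 ± 0.21 (SE; edgeR adjusted p = 0.135). *NDUFA3* had 11, 2 and 1 counts against 2, 13 and 9, and its groups overlapped.

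These sparse genes share their exons with other annotated genes or have second copies in the assembly. For *NDUFV2* (chromosome 18, 9102630 to 9134345 on GRCh38, plus strand), 90.0% of the canonical transcript lies in exons of another gene on the same strand, for *NDUFA13* 83.9% and for *NDUFA7* 77.9%. *NDUFA13*, with 227 counts over the 6 libraries, shares its strand with *YJEFN3*, which held 699 counts and had a log2 fold change of -0.31 ± 0.13 (SE; edgeR adjusted p = 0.211), of the opposite sign. The other same-strand partners held 0, 47 and 3 counts. The 2 members past 80% had means of 0.351 and 2.48 TPM, against a median of 81.2 TPM for the other 82 genes matched by symbol. *NDUFA3*, on chromosome 19, aligned to 9 alternate contigs, and *NDUFA6*, under the minimum with 3 counts, to 3. How reads that fit 2 genes or 2 places were counted is not given in the sources used here, so the levels of these genes are uncertain, and the part of exon sharing in their counts was not tested.

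Of the other members with much of the canonical transcript in a same-strand gene, *NDUFB8* (72.0%), *NDUFA11* (68.2%) and *ATP5PO* (63.8%) kept 1615 to 3086 counts. In all, 43 members share exon bases with another gene and 25 do so on the same strand. For 10 members a near-identical transcript is annotated elsewhere, such as *SDHAP2* for *SDHA* and *UQCRHL* for *UQCRH*, and reads of such pairs may be split between them.

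Complex II had 2 of 4 members above 0 and 2 below, a median log2 fold change of 0.01 and 0 called. *SDHA*, the flavoprotein that oxidizes succinate, was at 108, 112 and 105 CPM in control ATII CM and at 109, 107 and 112 CPM in 4-OHT ATII CM. *SDHB* was at 41.5, 43.9 and 46.6 CPM in controls and at 41.4, 41.5 and 40.7 CPM in 4-OHT libraries. The 4-OHT values of *SDHB* were all below the controls, though the closest 2 values were both 41.5 CPM, with a log2 fold change of -0.10 ± 0.05 (SE; edgeR adjusted p = 0.334), or -0.056 without control replicate 3 (edgeR adjusted p = 0.692). The anchor subunits *SDHC* and *SDHD* had log2 fold changes of 0.00 ± 0.04 (SE) and 0.08 ± 0.05 (SE), with overlapping groups, and *SDHD* was at 0.046 without 4-OHT replicate 3.

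Complex III had 4 of 10 members above 0 and 6 below, a median log2 fold change of -0.025 (0.014 without control replicate 2) and 0 called, and none passed an unadjusted p of 0.05. *UQCRC1*, a core subunit, was at 180, 194 and 184 CPM in controls and at 178, 184 and 184 CPM in 4-OHT libraries. *CYC1*, the haem-carrying subunit that hands electrons to cytochrome c, was at 89.6, 102 and 85.2 CPM in controls and at 92.8, 89.3 and 89.3 CPM in 4-OHT libraries. Control replicate 2 was the highest library for both. *UQCRFS1*, the Rieske iron-sulfur protein, was at 69.7, 70.3 and 72.4 CPM in controls and at 65.1, 69.5 and 68.6 CPM in 4-OHT libraries, without overlap, with a log2 fold change of -0.06 ± 0.04 (SE; edgeR adjusted p = 0.472), or -0.031 without 4-OHT replicate 1 (edgeR adjusted p = 0.799). *UQCR11* had the highest fold change of the complex at 0.07 ± 0.07 (SE) on the log2 scale (0.029 to 0.13 with 1 library left out) and *UQCRHL* the lowest at -0.14 ± 0.15 (SE).

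Complex IV had 3 of 12 members above 0 and 9 below, with 0 called. The median log2 fold change of complex IV was -0.04, and -0.00988 without control replicate 2. *COX5A* was at 58.2, 63.5 and 62.7 CPM in control ATII CM and at 60.0, 61.2 and 57.7 CPM in 4-OHT ATII CM. *COX5B* was at 96.9, 98.7 and 97.6 CPM in controls and at 95.5, 100 and 92.4 CPM in 4-OHT libraries. Both are structural subunits bound to the catalytic core, and their groups overlapped. *COX6C*, a small membrane subunit, was at 90.0, 95.3 and 87.8 CPM in controls and at 85.0, 85.3 and 85.5 CPM in 4-OHT libraries, without overlap, with a log2 fold change of -0.09 ± 0.04 (SE; edgeR adjusted p = 0.229). *COX6B1* also did not overlap, at a log2 fold change of -0.05 ± 0.04 (SE), which was -0.028 without 4-OHT replicate 1 and -0.020 after thinning to the smallest library.

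*COX7A1* had the highest fold change of complex IV. It encodes the form of subunit VIIa that is typical of heart and skeletal muscle. It was at 13.4, 11.7 and 14.0 CPM in controls and at 15.2, 14.8 and 14.8 CPM in 4-OHT libraries. All 4-OHT values were above all controls, with a log2 fold change of 0.19 ± 0.08 (SE; edgeR adjusted p = 0.217).

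Complex V had 2 of 18 members above 0 (11.1%, against 49.5% of all genes tested) and 16 below. Its median log2 fold change was -0.05, with 0 called. *ATP5F1A* and *ATP5F1B*, which form the catalytic head, were at 378 to 396 CPM and 549 to 572 CPM in controls and at 378 to 398 CPM and 546 to 552 CPM in 4-OHT libraries. Their log2 fold changes were 0.00 ± 0.03 (SE) and -0.03 ± 0.03 (SE), with overlapping groups. *ATP5IF1*, which inhibits ATP hydrolysis by the enzyme, was at 80.6, 89.9 and 85.7 CPM in controls and at 81.8, 78.2 and 84.8 CPM in 4-OHT libraries, with a log2 fold change of -0.06 ± 0.05 (SE; edgeR adjusted p = 0.532).

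*ATP5MK*, a small membrane subunit, had the lowest fold change of complex V. It was at 75.8, 79.3 and 77.9 CPM in control ATII CM and at 66.8, 75.1 and 70.5 CPM in 4-OHT ATII CM, without overlap. The log2 fold change was -0.13 ± 0.04 (SE; edgeR adjusted p = 0.111), and the adjusted p ranged from 0.05003 with GC and length trends removed to 0.392 without 4-OHT replicate 1 over the alternatives. *ATP5MF*, also in the membrane part, did not overlap at a log2 fold change of -0.07 ± 0.04 (SE), or -0.045 without 4-OHT replicate 2. The 2 stalk subunits named for level or fold change, *ATP5PD* (0.04 ± 0.05, SE) and *ATP5PO* (-0.04 ± 0.07, SE), had overlapping groups.

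Several subunits exist as paralogs with tissue-typical use, and by TPM per canonical length 1 paralog led in each family in MRC5 cells. *COX6A2*, the heart and muscle form, *COX7B2*, *COX8C* and *COX4I2* had 0 counts in every library, which allows up to 3 counts each for counting error only, and *COX6B2*, typical of testis, had 29 counts in all against 10666 for *COX6B1*. The partners *COX6A1*, *COX7B*, *COX8A* and *COX4I1* gave all counts assigned to their families. *COX8C* also aligned to 1 alternate contig, so its 0 and the share of *COX8A* carry the uncertainty given above for genes with second copies. *COX7A2* gave most of subunit VIIa, while *COX7A1* made up 15.7%, 13.1% and 16.6% of the family's TPM per canonical length in controls and 17.3%, 17.5% and 17.3% in 4-OHT libraries. These shares did not overlap, and the *COX7A1* counts themselves were not called.

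The ring of complex V is built of subunit c, for which 3 genes encode the same mature protein behind different import sequences. *ATP5MC2* gave 64.5% ± 0.637 (SD, n = 3) of the TPM per canonical length of the 3 genes in controls and 65.6% ± 0.603 (SD, n = 3) in 4-OHT libraries. *ATP5MC1* gave 17.8% ± 0.778 and 16.5% ± 0.603, and *ATP5MC3* gave 17.7% ± 0.409 and 17.9% ± 0.676 (SD, n = 3 each). These shares depend on the length used. Per merged exon length the mean TPM over the 6 libraries was 50.8 for *ATP5MC1*, 123 for *ATP5MC2* and 81.3 for *ATP5MC3*. By counts, *ATP5MC3* (18235) exceeded *ATP5MC2* (16298). The log2 fold change of *ATP5MC1* was -0.13 ± 0.07 (SE; edgeR adjusted p = 0.353), or -0.045 without control replicate 2 (edgeR adjusted p = 0.767), and those of *ATP5MC2* and *ATP5MC3* were 0.00 ± 0.05 (SE) and -0.01 ± 0.04 (SE). *NDUFA4L2*, a paralog of *NDUFA4* known to be induced in hypoxia, gave 6.04% ± 0.652 and 6.94% ± 0.551 (SD, n = 3 each) of the pair. *UQCRHL* gave 5.53% ± 0.373 and 5.04% ± 0.465 (SD, n = 3 each) of the hinge pair, whose transcripts are near identical. The *UQCRHL* counts were taken over 2180 merged exon bases but divided here by a canonical length of 276. Per merged exon length *UQCRHL* was at 6.71 TPM against 362 TPM for *UQCRH*, with 481 against 16888 counts.

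**Figure D5:**
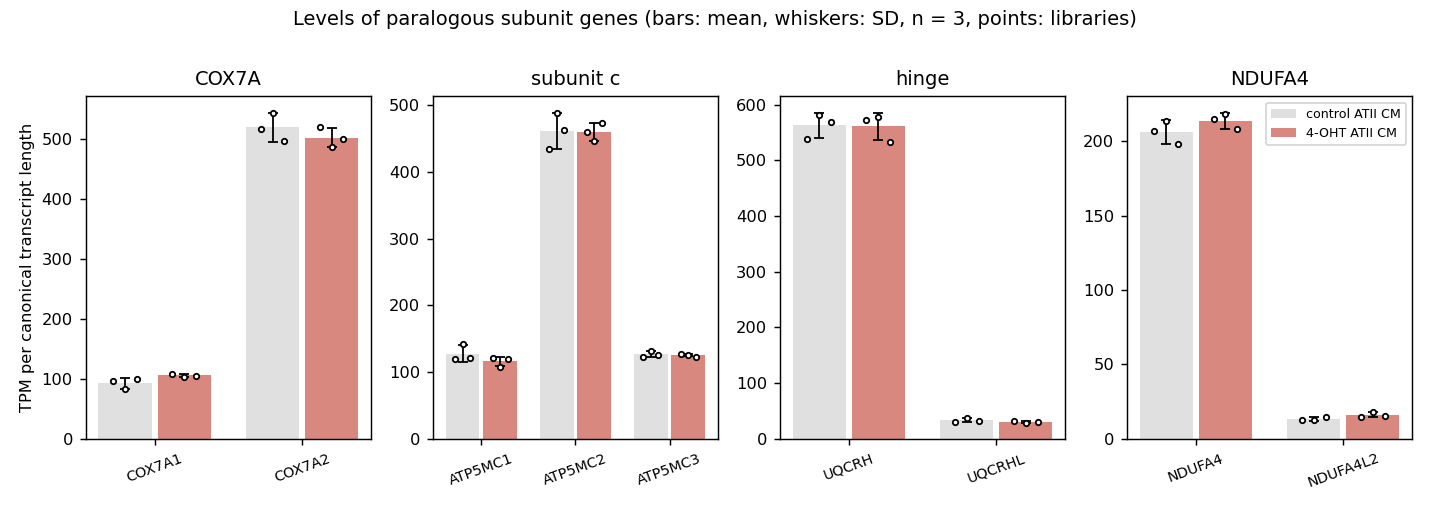
TPM per canonical transcript length on the y axis for the genes of 4 subunit families on the x axis, with bars for group means, whiskers for SD (n = 3) and points for libraries. *COX7A2*, *ATP5MC2*, *UQCRH* and *NDUFA4* lead their families in both groups on this scale.

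NRF1, GABPA (an ETS factor), YY1 and SP1 are transcription factors known to act on respiratory chain genes. Promoters of 63 of the 79 members were found in the RefSeq table (GRCh38.p14) and were searched on both strands. Each ran from 250 bases before to 50 bases after the RefSeq start, which can differ from that of the counted gene. For *NDUFA5* (minus strand) the window at chr7:123601602-123601901 lay outside the counted gene, which ends at 123558255. The NRF1 letters GCATGCGC were present in 12 of 63 (19.0%), against 3.27% of all 27305 promoters and 5.20% of the 11134 of protein-coding genes tested here. The ETS letters CCGGAAG were present in 30.2%, against 10.7% of all promoters and 18.3% of those of protein-coding genes tested. The YY1 letters AAGATGGC were present in 15.9%, against 3.03% and 5.04%.

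The SP1 letters GGGCGG were present in 61.9% of the members' promoters, against 44.6% of all promoters and 68.6% of those of protein-coding genes tested. In all, 32 of 63 promoters (50.8%) held the NRF1, ETS or YY1 letters, against 25.8% for protein-coding genes tested, and 13 held none of the 4. Matches of 2 motifs overlapped in 1 member promoter. A match is a description of letters, not evidence of binding.

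Windows around an NRF1 match are shown for 1 member each of complexes I, II, IV and V, to let the letters be seen; no complex III promoter held them. Each runs 5′ to 3′ on the strand of the gene, and capitals mark matches to NRF1 (GCATGCGC or GCGCATGC) and SP1 (GGGCGG or CCGCCC). *NDUFS6* lies at chr5:1801307-1801406 (plus strand), *SDHB* at chr1:17054179-17054278 (minus), *COX5B* at chr2:97645880-97645979 (plus) and *ATP5MC2* at chr12:53676084-53676183 (minus).
NDUFS6: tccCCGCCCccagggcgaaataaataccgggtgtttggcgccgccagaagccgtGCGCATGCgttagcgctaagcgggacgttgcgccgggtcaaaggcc
SDHB: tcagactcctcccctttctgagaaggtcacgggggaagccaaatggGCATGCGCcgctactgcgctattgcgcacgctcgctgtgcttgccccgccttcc
COX5B: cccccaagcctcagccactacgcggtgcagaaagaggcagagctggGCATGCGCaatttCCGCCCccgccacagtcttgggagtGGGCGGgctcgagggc
ATP5MC2: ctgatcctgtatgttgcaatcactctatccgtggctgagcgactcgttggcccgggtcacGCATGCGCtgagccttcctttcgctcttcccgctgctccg

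The subunits encoded in mitochondrial DNA were also not called. All 13 were measured, with 4 above 0 and 9 below in log2 fold change and a median of -0.05. Together they summed to 17240 to 17967 CPM in controls and 16115 to 18104 CPM in 4-OHT libraries, and the ranges overlapped. *MT-ND1*, a complex I subunit, was at 589, 595 and 615 CPM in controls and at 488, 567 and 557 CPM in 4-OHT libraries, with a log2 fold change of -0.16 ± 0.05 (SE; edgeR adjusted p = 0.0547). It was called in 11 of 16 alternatives, with adjusted p from 0.000540 to 0.217, the highest being that without 4-OHT replicate 1, where the log2 fold change was -0.089.

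The other 12 mitochondrially encoded genes follow on the log2 scale, with SE. The complex I genes *MT-ND2* (-0.09 ± 0.05), *MT-ND3* (-0.05 ± 0.06), *MT-ND4* (-0.04 ± 0.03), *MT-ND4L* (-0.10 ± 0.05), *MT-ND5* (0.03 ± 0.03) and *MT-ND6* (0.09 ± 0.05) went both ways. In complex III, *MT-CYB* stood at 0.01 ± 0.03. In complex IV, *MT-CO1* stood at -0.01 ± 0.03, *MT-CO2* at -0.10 ± 0.05 and *MT-CO3* at -0.08 ± 0.04. In complex V, *MT-ATP6* stood at -0.05 ± 0.05 and *MT-ATP8*, which had the fewest counts of the 13, at 0.16 ± 0.08. *MT-ATP8* was at 73.2, 74.7 and 74.8 CPM in controls and at 69.9, 82.3 and 95.5 CPM in 4-OHT libraries, which overlapped. Its log2 fold change ran from 0.034 without 4-OHT replicate 3 to 0.27 without 4-OHT replicate 1, with edgeR adjusted p of 0.872 and 0.0167. Over all 16 alternatives the adjusted p of *MT-ATP8* ran from 0.00446 to 0.872. *MT-CO2* stood at -0.18 without 4-OHT replicate 2 (edgeR adjusted p = 0.0156) and at -0.038 without 4-OHT replicate 1 (edgeR adjusted p = 0.749). *MT-ND6* stood at 0.16 without 4-OHT replicate 1 (edgeR adjusted p = 0.0316) and at 0.046 without 4-OHT replicate 3 (edgeR adjusted p = 0.779). With 1 library left out, *MT-ND2* ran from -0.15 to -0.024, *MT-CO3* from -0.12 to -0.016 (both between leaving out 4-OHT replicate 2 and replicate 1), *MT-ND4L* from -0.13 to -0.037 (the latter without control replicate 1) and *MT-ND5* from 0.011 to 0.065, none of them called. The libraries came from polyA RNA, and adjacent mitochondrial genes overlap or share a transcript.

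Subunits and carriers whose symbols fall outside the rule gave like values. Of 10 such genes beside *ATP5MGL*, 8 were tested and none was called. *COX4I1*, the main form of complex IV subunit IV, was at 224, 248 and 237 CPM in controls and at 240, 251 and 240 CPM in 4-OHT libraries, with a log2 fold change of 0.04 ± 0.04 (SE). Cytochrome c (*CYCS*) stood at -0.08 ± 0.04 (SE), the acyl carrier protein *NDUFAB1* at -0.10 ± 0.05 (SE), *COX7A2L* at 0.01 ± 0.04 (SE), *HIGD1A* at 0.07 ± 0.04 (SE), *HIGD2A* at -0.12 ± 0.07 (SE), *DMAC2L* at -0.02 ± 0.08 (SE) and *NDUFA4L2* at 0.28 ± 0.12 (SE). *NDUFA4L2* was highest in fold change of these and did not overlap between groups, at 4.87, 4.98 and 5.65 CPM in controls and 5.76, 7.06 and 5.97 CPM in 4-OHT libraries (edgeR adjusted p = 0.256). Over the alternatives its log2 fold change ran from 0.18 to 0.35, and it was called in none.

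Among the genes that assemble the complexes, none was called. The lowest adjusted p (edgeR) were 0.0547 for *COA4*, 0.0635 for *FOXRED1* and 0.0930 for *COX14*, each without overlap between groups. Their log2 fold changes were -0.18 ± 0.05, -0.28 ± 0.08 and 0.21 ± 0.07 (SE), so they went both ways. Of the assembly factors, 18 were tested for complex I, 4 for complex II, 9 for complex III, 23 for complex IV and 4 for complex V, with median log2 fold changes of -0.03, 0.02, -0.10, -0.01 and 0.03. The 13 citric acid cycle genes, which supply NADH and succinate, had 3 above 0 and 10 below, a median of -0.08 and 0 called.

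Of 16 regulators of mitochondrial biogenesis, 1 was called (6.25%, against 5.72% of all genes tested). *PPRC1*, a coactivator related to PGC-1 and known to respond to growth signals, was at 56.4, 57.0 and 57.7 CPM in control ATII CM and at 50.1, 49.8 and 52.4 CPM in 4-OHT ATII CM. It was lower in each 4-OHT library than in any control, with a log2 fold change of -0.17 ± 0.04 (SE; edgeR adjusted p = 0.0211). It was not called by DESeq2 (adjusted p = 0.0504), without control replicate 3 (0.0852), without 4-OHT replicate 1 (0.0876) or without 4-OHT replicate 2 (0.0964), with log2 fold changes from -0.19 to -0.15 over the alternatives. *NRF1*, *GABPA*, *YY1* and *TFAM*, the last of which drives transcription of mitochondrial DNA, had log2 fold changes of 0.04 ± 0.08, 0.07 ± 0.05, 0.02 ± 0.04 and -0.06 ± 0.05 (SE). *PPARGC1A*, which encodes PGC-1 alpha, was sparse at 0.515 to 0.706 CPM in controls and 0.685 to 0.875 CPM in 4-OHT libraries.

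The 5 genes matched by symbol but under the count minimum were *NDUFA6* with 3 counts, *ATP5MGL* with 1 and *COX6A2*, *COX7B2* and *COX8C* with 0 over the 6 libraries. They were in no test.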

How the data were processed

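Six-library RNA-Seq of MRC5 fibroblasts, 3 in control ATII CM and 3 in 4-OHT ATII CM as grouped per the labels, was analysed from the deposited table of raw counts per gene. Per the labels, the authors trimmed adapters (Trim Galore), aligned the reads to the GRCh38 build by HISAT2 2.1.0 and assigned them to genes by featureCounts 1.6.5. The counts carry no normalization, and settings for strand, multiple hits and shared exons are not given in the sources used here. The table has 58721 lines for 58676 identifiers, as 45 stand on both X and Y and were added. Names came from GENCODE 44 by identifier.

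Genes with at least 10 counts in all were tested with edgeR 4.0.16 in R 4.3.3 (TMM, quasi-likelihood test, group as the only term), with Benjamini-Hochberg adjustment over all 19072 genes and a threshold of 0.05. CPM used TMM library sizes, and standard errors were derived from the fold change and F statistic. TPM used merged exon length. Alternatives were DESeq2 1.42.0, limma-voom (limma 3.58.1), other scalings and filters, a replicate block, removal of GC and length trends, thinning and each library left out. The scripts were tested on simulated data. Near-identical transcripts (at least 95% identity over 50% of a transcript) and copies on 261 alternate contigs (98% over 90%) were found with minimap2 2.31. The square root of the common dispersion was 4.36%, so that depth limits mainly the genes with few counts.

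Named genes were the highest and lowest of each complex in TPM and in fold change (mean of at least 1 CPM), core subunits, isoform families, called members of the gene lists, the mitochondrially encoded and other subunits, and, added after their values were seen, members with an unadjusted p under 0.05, without overlap or with copies on alternate contigs. The assembly factors named are those lowest in adjusted p, also added after their values were seen. Values of called marker and proliferation genes are not given singly. The members and lists were chosen with earlier results of these data known. The construct carried by the ATII cells is not named here.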

Additional observations from a re-analysis of the deposited data

How the results depend on the processing

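The members' calls did not depend on the processing: 0 were called up and 0 down in each of the 17 alternatives (filterByExpr left 75 members to test). Their median log2 fold change ranged from -0.044 to -0.0095 and was below 0 in each. Leaving out 1 library gave 533 to 1530 genes called over all genes, against 1090 with all 6, with the lowest counts without control replicate 3 (663), 4-OHT replicate 2 (533) or 4-OHT replicate 3 (615) and the highest without control replicate 2 (1530), and the cause was not tested. The numbers of the replicates did not pair the samples (correlations of same-numbered deviations of 0.000567, 0.000994 and -0.00387), and a replicate block called 985 genes and 0 members, with a median of -0.028. Of the 79 members, 46 kept their sign in all alternatives and 33 did not. Log2 fold changes that changed sign were *ATP5F1A* (-0.00308), *UQCRH* (-0.00558) with library totals in place of TMM, *ATP5MC2* (0.00141) with limma-voom, and *ATP5MC2* (0.00661), *MT-CO1* (0.00184), *SDHC* (0.00609) with no count filter. Others were *ATP5MC2* (0.0313), *ATP5MC3* (0.00126), *SDHC* (0.00537), *UQCRH* (-0.00694) with thinning to the smallest library, *COX7A2L* (-0.00176), *NDUFS1* (0.00117), *SDHC* (0.0333), *UQCRH* (-0.000129) with removal of the GC and length trends, and *COX7A2L* (-0.00184), *NDUFS1* (0.00106), *SDHC* (0.0326), *UQCRH* (-0.000975) with the replicate block with that removal. Further ones were *UQCRH* (-0.000735) with DESeq2, *UQCRH* (-0.000717) with DESeq2's size factors in edgeR, and *UQCRH* (-0.00144) with filterByExpr. With 1 library left out, sign changes came with ranges of *ATP5F1A* (-0.0184 to 0.0238), *ATP5MC2* (-0.0551 to 0.045), *ATP5MC3* (-0.0438 to 0.0255), *ATP5PD* (-0.00455 to 0.100), *ATP5PO* (-0.0772 to 0.0125), *COX5B* (-0.0588 to 0.00148), *COX6B2* (-0.61 to 0.381), *COX7A2L* (-0.0172 to 0.0402), *CYC1* (-0.0885 to 0.0492), *DMAC2L* (-0.0461 to 0.0251), *MT-ATP6* (-0.0872 to 0.0321), *MT-CO1* (-0.0349 to 0.0302), *MT-CYB* (-0.0165 to 0.0448), *MT-ND3* (-0.144 to 0.0212), *MT-ND4* (-0.0751 to 0.0077), *NDUFA3* (-0.0142 to 2.05), *NDUFS5* (-0.0508 to 0.032), *SDHA* (-0.0106 to 0.0419), *SDHC* (-0.0186 to 0.00389) and *UQCRH* (-0.0401 to 0.0337). None of these was called with the sign changed. *MT-ND6*, *MT-CO2* and *MT-ATP8*, not called with all libraries, were called in 1, 2 and 2 of 16 alternatives. With few counts, as for *COX6B2* and *NDUFA3*, depth limits what can be compared.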
